A study of Mus musculus with 5 samples.

Results

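The 9 genes Gata1, Gata2, Gfi1b, Klf1, Epor, Nfe2, Kit, Myb and Erg, which encode factors and receptors of blood progenitors and of the megakaryocyte and erythroid lineages, were followed in RNA sequencing of Kupffer cells, the macrophages that live in the liver sinusoids. They are the rows of the count table that carry these 9 gene symbols, 9 of the 46983 genes in it. The ID3-/- samples (n = 2, replicates 2 and 3) carry no intact copy of Id3 and the ID3+/- samples (n = 3, replicates 1, 2 and 3) keep 1 copy, so both groups carry a targeted allele and no wild type is among them. Id3 encodes an inhibitor of DNA binding that holds E proteins off DNA, and the comparison asks which transcripts differ in Kupffer cells without it. Strain, age, sex, the allele and the way the cells were purified after mechanical disruption of the liver are not in the labels, and the column names carry an unexplained 3w. The 9 genes were picked with their counts in these libraries already known, so their levels and fold changes below are a description and carry no test.

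GATA1 and GATA2 are zinc-finger factors that bind the letters GATA. GATA2 serves stem cells, progenitors and mast cells, and GATA1 takes over in erythroid cells and megakaryocytes, where it works with partners such as TAL1, LMO2 and LDB1 and an E protein, the kind of factor that ID3 sequesters. KLF1 drives globin genes, GFI1B is a transcriptional repressor that acts in both lineages, NFE2 completes platelet formation and MYB keeps progenitors dividing. ERG is an ETS factor of stem cells and endothelium, and KIT and EPOR are the receptors of stem cell factor and erythropoietin. Adult Kupffer cells are not known for the erythroid and megakaryocyte programme. Endothelial, stem and mast cells, erythroblasts and platelets are known for one or another of these genes.

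The libraries held 75.8M and 77.3M counts assigned to genes in ID3-/- and 74.8M to 80.9M in ID3+/- samples. Id3 had 76 and 110 counts in ID3-/- libraries against 17479 to 18813 in ID3+/- libraries, so each library matched its label. The Kupffer cell markers (14 genes, Clec4f, Vsig4, Timd4 and Cd5l among them) summed to 75334 and 79470 CPM (counts scaled to library size) in ID3-/- and 68453 to 71592 CPM in ID3+/- libraries. Markers of other cells were in the same libraries: hepatocyte markers summed to 5542 and 13200 CPM in ID3-/- and 25257 to 31038 CPM in ID3+/- libraries, and neutrophil markers to 204 and 477 CPM in ID3-/- and 97.9 to 120 CPM in ID3+/- libraries. In bulk RNA, fewer cells of a type and less RNA per cell cannot be told apart.

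Per length, Epor stood far above the other 8 genes in both genotypes. Levels were set per kilobase of the longest annotated transcript, as TMM-normalised CPM (scaled by the trimmed mean of M values). In ID3-/- libraries the order of mean levels was Epor (19.1 CPM per kb), Nfe2 (2.99), Kit (1.84), Gata2 (0.47), Erg (0.338), Klf1 (0.164), Myb (0.0341), Gfi1b (0.0328) and Gata1 (0.0034). In ID3+/- libraries it was Epor (13.96 CPM per kb), Kit (2.17), Erg (1.43), Nfe2 (0.716), Gata2 (0.664), Gata1 (0.245), Klf1 (0.184), Gfi1b (0.0579) and Myb (0.0409). Among neighbours, the library ranges of Nfe2 and Kit, Klf1 and Myb, and Myb and Gfi1b overlapped in ID3-/- libraries, as did those of Gfi1b and Gata1. In ID3+/- libraries those of Kit and Erg, Erg and Nfe2, Nfe2 and Gata2, Gata2 and Gata1, Gata1 and Klf1, Klf1 and Gfi1b, and Gfi1b and Myb overlapped. With exons of all transcripts joined, Erg (1.34 CPM per kb) came just above Kit (1.28 CPM per kb) in ID3+/- libraries. Per kilobase of the longest transcript, 76.6% of the genes tested lay below Epor in ID3+/- libraries, 48.3% below Kit and 3.09% below Myb.

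**Figure D1:**
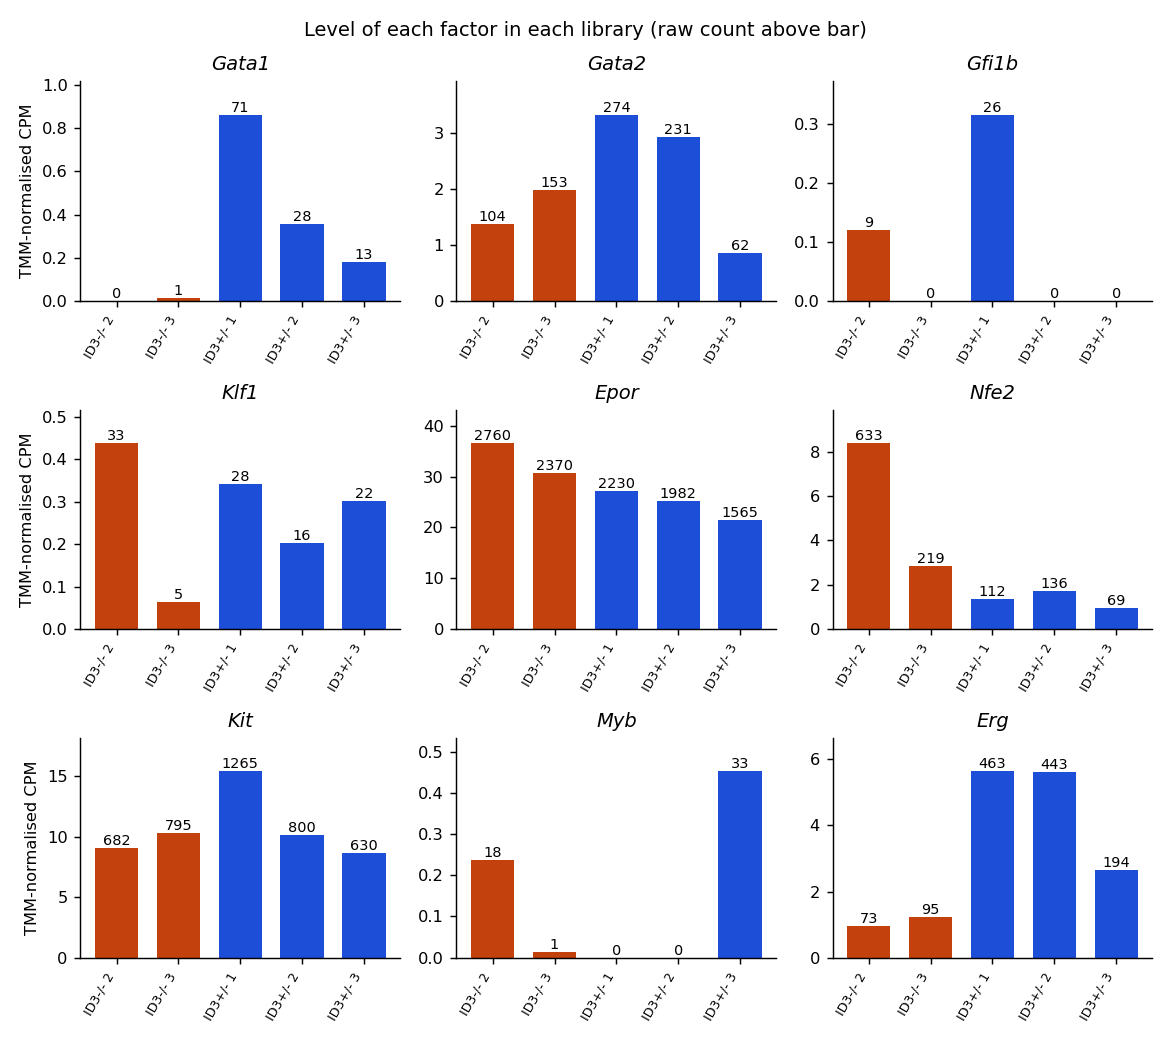
TMM-normalised CPM of each of the 9 genes in the 2 ID3-/- libraries (orange) and the 3 ID3+/- libraries (blue), with the raw count above each bar; vertical scales differ between panels. Gata1 and Erg are lower and Nfe2 and Epor higher in both ID3-/- libraries than in any ID3+/- library, while Gata2, Gfi1b, Klf1, Kit and Myb overlap.

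Gata1 had 0 and 1 counts in ID3-/- replicates 2 and 3, against 71, 28 and 13 counts in ID3+/- replicates 1, 2 and 3. The gene was thus nearly without reads in both ID3-/- libraries and low but present in every ID3+/- library, with a 4.84-fold range among the ID3+/- libraries. The ratio of ID3-/- to ID3+/- counts was 0.0137, with a 95% exact counting interval of 0.000343 to 0.0777, which covers counting error only. The fitted log2 fold change, -5.85 ± 1.34 (SE, n = 2 and 3), depends on the prior count at such low counts. It came to -8.18 without ID3-/- replicate 3 and to -5.01 without ID3-/- replicate 2. The 0 in ID3-/- replicate 2 allows a level of up to 0.0388 CPM, a limit of 3 counts.

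The promoter of Gata1 is shown because this gene had the widest gap between genotypes. It is the RefSeq window from 250 bases before to 50 bases after the start site, chrX:7967861-7968160 on the minus strand of GRCm38.p6, with capitals on CACCC, the core that KLF factors bind.
Gata1: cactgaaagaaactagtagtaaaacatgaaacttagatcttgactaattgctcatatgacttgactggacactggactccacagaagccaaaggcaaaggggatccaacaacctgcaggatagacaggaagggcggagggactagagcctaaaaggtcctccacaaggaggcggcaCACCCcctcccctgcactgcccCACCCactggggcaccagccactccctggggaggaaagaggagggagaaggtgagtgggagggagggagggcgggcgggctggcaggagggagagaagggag
CACCC was found here 2 times and the GATA letters 0 times. The search covered both strands, and CACCC was in 57.5% of all 32851 promoters in the table.

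Gata2 had 104 and 153 counts in ID3-/- replicates 2 and 3 and 274, 231 and 62 counts in ID3+/- replicates 1, 2 and 3. Unlike Gata1 it was read in every library, and both ID3-/- values lay inside the ID3+/- range, whose low end was replicate 3. Gata2 averaged 1.68 ± 0.423 CPM in ID3-/- (SD, n = 2) and 2.37 ± 1.33 CPM in ID3+/- libraries (SD, n = 3). Its log2 fold change was -0.50 ± 0.60 (SE), smaller than its error, and -0.17 without ID3+/- replicate 1.

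Gfi1b had 9 counts in ID3-/- replicate 2 and 26 in ID3+/- replicate 1, and 0 counts in the other 3 libraries. It was the 1 gene of the 9 that did not pass the filter on low counts. Its ratio of ID3-/- to ID3+/- counts was 0.53 (95% exact counting interval 0.218 to 1.17). Klf1 had 33 and 5 counts in ID3-/- replicates 2 and 3 and 28, 16 and 22 counts in ID3+/- replicates 1, 2 and 3. The ID3-/- libraries lay on either side of all ID3+/- libraries. The ratio of Klf1 counts was 0.881 (95% exact counting interval 0.575 to 1.33), and its log2 fold change moved between -2.10 without ID3-/- replicate 2 and 0.64 without ID3-/- replicate 3.

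Epor, the receptor through which erythropoietin keeps erythroid progenitors alive, was the most abundant of the 9. It had 2760 and 2370 counts in ID3-/- replicates 2 and 3 against 2230, 1982 and 1565 counts in ID3+/- replicates 1, 2 and 3. Both ID3-/- libraries were above every ID3+/- library, at 36.6 and 30.6 CPM against 21.5 to 27.1 CPM. The mean was 33.6 ± 4.23 CPM in ID3-/- (SD, n = 2) and 24.6 ± 2.87 CPM in ID3+/- libraries (SD, n = 3), a log2 fold change of 0.45 ± 0.15 (SE). With offsets for transcript length and GC content this value was 0.10. Epor has a transcript with 59.6% GC.

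4 of the 12 promoters on record for 8 of the 9 genes held a GATA match (AGATAA and TGATAA, or with a closing G instead, as AGATAG and TGATAG, on both strands), against 29.8% of all 32851 promoters of that length. They are shown since GATA1 and GATA2 bind these letters and are known to act on several of these genes. They belong to Epor (chr9:21963527-21963826, minus strand), Klf1 (chr8:84901732-84902031, plus strand), Gfi1b (chr2:28621933-28622232, minus strand) and the third start of Erg (chr16:95459299-95459598, minus strand), all from RefSeq on GRCm38.p6. Capitals mark the match, which starts at -54, -80, -120 and -103 from the start site, in that order.
Epor: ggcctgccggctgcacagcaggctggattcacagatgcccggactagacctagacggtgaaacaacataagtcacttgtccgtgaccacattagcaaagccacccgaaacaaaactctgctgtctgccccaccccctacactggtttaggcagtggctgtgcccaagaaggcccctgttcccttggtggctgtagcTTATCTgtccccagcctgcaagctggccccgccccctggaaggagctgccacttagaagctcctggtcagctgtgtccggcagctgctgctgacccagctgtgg
Klf1: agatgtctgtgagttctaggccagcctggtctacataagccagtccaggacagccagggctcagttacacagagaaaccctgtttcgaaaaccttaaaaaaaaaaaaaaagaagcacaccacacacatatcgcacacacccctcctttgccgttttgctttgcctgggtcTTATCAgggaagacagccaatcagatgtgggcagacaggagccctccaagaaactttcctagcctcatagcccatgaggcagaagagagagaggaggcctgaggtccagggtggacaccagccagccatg
Gfi1b: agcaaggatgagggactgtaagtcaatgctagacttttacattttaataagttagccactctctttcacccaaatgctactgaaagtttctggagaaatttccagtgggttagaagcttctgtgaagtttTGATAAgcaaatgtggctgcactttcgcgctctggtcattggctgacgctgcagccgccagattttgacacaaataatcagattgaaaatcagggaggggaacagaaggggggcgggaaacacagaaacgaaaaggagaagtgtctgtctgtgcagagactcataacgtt
Erg: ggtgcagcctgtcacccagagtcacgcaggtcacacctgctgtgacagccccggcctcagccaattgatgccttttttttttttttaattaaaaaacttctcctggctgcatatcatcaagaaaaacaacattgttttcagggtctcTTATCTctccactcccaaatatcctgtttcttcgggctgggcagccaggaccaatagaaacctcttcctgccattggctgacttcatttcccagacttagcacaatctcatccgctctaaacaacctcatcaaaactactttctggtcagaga
The genes with these letters were higher (Epor), lower (Erg) or overlapping between genotypes (Klf1, Gfi1b). By symbol, 8 of the 9 genes matched the table by symbol, the other being Nfe2. E-box letters CAGCTG or CAGGTG, which E proteins bind, were in 3 of the 12 promoters, those of Epor, of Erg at the start shown and of 1 start of Gata2, against 33.0% of all promoters. None of these matches overlapped a match to another motif searched. A match is a description of these letters and not a binding site.

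Nfe2, the subunit that pairs with small MAF proteins in late megakaryocytes and is also known from neutrophils, had 633 and 219 counts in ID3-/- replicates 2 and 3. ID3+/- replicates 1, 2 and 3 had 112, 136 and 69 counts. Both ID3-/- libraries were above all ID3+/- libraries, but they differed 2.97-fold from each other. The mean was 5.61 ± 3.94 CPM in ID3-/- (SD, n = 2) and 1.34 ± 0.388 CPM in ID3+/- libraries (SD, n = 3), a log2 fold change of 2.06 ± 0.51 (SE). Without ID3-/- replicate 2 it was 1.07. The libraries with the most Nfe2 also had the highest summed neutrophil markers: relative to the ID3+/- mean, and scaled to library size, Nfe2 CPM stood at 606% and 214% in ID3-/- replicates 2 and 3, and the neutrophil sum at 424% and 182%. Mmp9, a gelatinase that macrophages also make, supplied 53.0% and 79.1% of that sum in ID3-/- and 87.2% to 89.2% in ID3+/- libraries. With Mmp9 left out, a choice made after seeing the data, the neutrophil sum stood at 1674% and 318% in ID3-/- replicates 2 and 3 and at 93.5% to 110% in ID3+/- libraries, further above the ID3+/- mean than Nfe2. The part of neutrophil RNA in the Nfe2 level was not tested.

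Erg had 73 and 95 counts in ID3-/- replicates 2 and 3 against 463, 443 and 194 counts in ID3+/- replicates 1, 2 and 3. The ID3-/- libraries were close together and below every ID3+/- library, of which replicate 3 was the lowest. Erg averaged 1.10 ± 0.183 CPM in ID3-/- (SD, n = 2) and 4.64 ± 1.71 CPM in ID3+/- libraries (SD, n = 3), or 23.7% of the ID3+/- mean. The log2 fold change was -2.08 ± 0.43 (SE) and lay between -2.35 and -1.91 when 1 library was left out. ERG is a defining factor of endothelium, whose 32 markers summed to 1699 and 1723 CPM in ID3-/- and 1932 to 2362 CPM in ID3+/- libraries. That sum stood at 80.0% and 81.1% of the ID3+/- mean in ID3-/- replicates 2 and 3, where Erg, on the same scale, stood at 20.2% and 26.9%. With Stab2, its most abundant gene, left out, a choice made after seeing the data, the endothelial sum stood at 74.4% and 78.15%. The part of endothelial RNA in the Erg level was not tested.

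**Figure D2:**
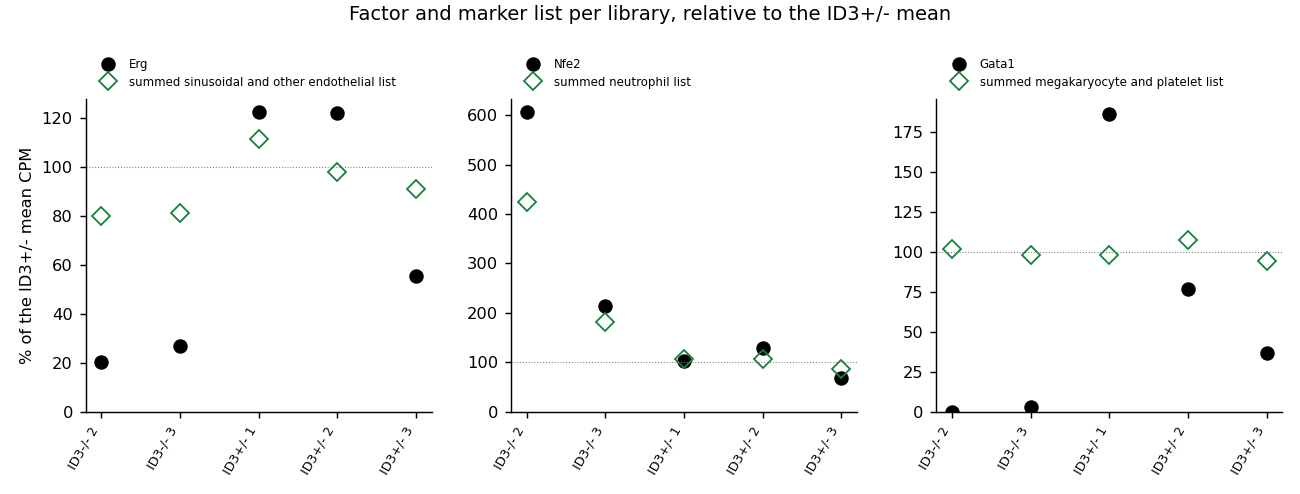
CPM per library as a percentage of the ID3+/- mean, for Erg, Nfe2 and Gata1 (black circles) and for the summed endothelial, neutrophil and megakaryocyte-platelet lists (green diamonds); vertical scales differ between panels. Erg and Gata1 stand below the list drawn with them in both ID3-/- libraries. The megakaryocyte-platelet list is at 101.6% and 98.2% in ID3-/- replicates 2 and 3. Clec1b, which Kupffer cells also make, supplies 50.9% and 50.3% of that list there, so the sum is not megakaryocyte RNA alone. Nfe2 and the neutrophil sum, most of which is Mmp9, are both highest in ID3-/- replicate 2.

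Kit had 682 and 795 counts in ID3-/- replicates 2 and 3 and 1265, 800 and 630 counts in ID3+/- replicates 1, 2 and 3. Both ID3-/- values were inside the ID3+/- range, which replicate 1 stretched upward. The means were 9.66 ± 0.868 CPM in ID3-/- (SD, n = 2) and 11.4 ± 3.55 CPM in ID3+/- libraries (SD, n = 3). The log2 fold change of -0.24 ± 0.27 (SE) turned to 0.04 without ID3+/- replicate 1 and to 0.09 with offsets for length and GC content.

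Myb had 18 and 1 counts in ID3-/- replicates 2 and 3 and 0, 0 and 33 counts in ID3+/- replicates 1, 2 and 3. Its reads came almost wholly from 1 library of each genotype, and the ratio of ID3-/- to ID3+/- counts was 0.881 (95% exact counting interval 0.474 to 1.60). The 0 values allow up to 0.0371 and 0.0386 CPM in ID3+/- replicates 1 and 2. In the annotation, Myb exons share 559 bases with the antisense gene Gm26577, and the strand setting of the counting is not given, so reads there cannot be told apart.

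Swings of this kind were common at such depth. Of the 4955 genes of the table that averaged from 5 up to 50 counts a library, as Gata1, Gfi1b, Klf1 and Myb did, 22.7% had 0 counts in at least 1 ID3+/- library. In 17.0% of them 1 ID3+/- library had 0 and another had 10 or more. The median highest-to-lowest ratio within ID3+/- libraries was 3.02 for genes in that range, against 1.23 for genes averaging from 500 up to 5000 counts, where Kit and Epor lie. The Gata1 range of 4.84-fold is above the first of these medians.

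Over all genes tested, 16.4% passed the test at an adjusted p under 0.05 (edgeR quasi-likelihood, Benjamini-Hochberg), 6.41% higher and 10.0% lower in ID3-/- libraries. The split was 1054 higher and 1644 lower, and with offsets for length and GC content 877 higher and 901 lower. Of the 8 genes of the set that were tested, 1 passed as higher (Nfe2) and 2 lower (Gata1 and Erg), a count from which nothing is read since the genes were chosen on these values. Each of the 3 passed in 1 of the 5 fits with a library removed: Gata1 and Erg without ID3+/- replicate 3, and Nfe2 without ID3-/- replicate 3. Libraries of the 2 genotypes were fully separated in 51.5% of the genes tested, with ID3-/- higher in 24.6% and lower in 26.9%. Among the 9 genes, 2 lay wholly higher and 2 wholly lower. The median log2 fold change of the 8 tested was -0.25, and that of all genes tested was -0.02.

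**Figure D3:**
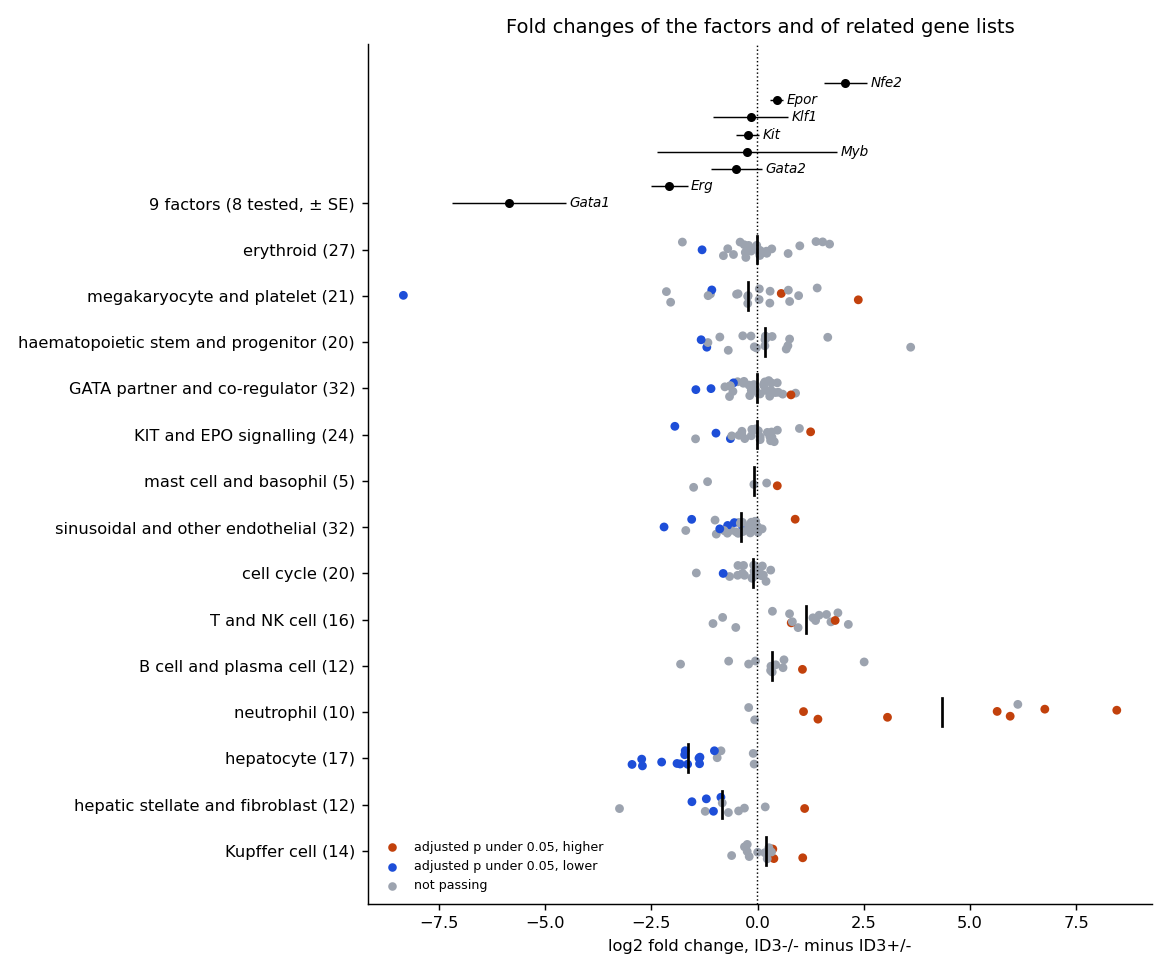
Log2 fold change (ID3-/- minus ID3+/-) of the 8 tested genes with SE bars (top), and of each tested gene of the 14 lists, with the number tested in brackets; black ticks are list medians and the dotted line is the median of all genes tested (-0.02). Gata1 (-5.85) and Erg (-2.08) lie left and Nfe2 (2.06) right of the other 5, and list medians run from -1.65 for hepatocyte to 4.35 for neutrophil markers.

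Counts in the 5 lists of genes these factors act on or with stand against the 16.4% that passed over all genes tested. Among 27 tested erythroid genes (globins, haem synthesis, red cell membrane), 0 were higher and 1 was lower, with a median log2 fold change of -0.02. Tfrc, the transferrin receptor, which most dividing cells also make, fell to 9.81 ± 3.74 CPM in ID3-/- (SD, n = 2), against 24.3 ± 5.05 CPM in ID3+/- libraries (SD, n = 3), at -1.31 ± 0.30 on the log2 scale (edgeR adjusted p = 0.0355). The globin genes Hbb-bs and Hba-a1 were abundant in both genotypes and did not pass. Hbb-bs stood at 1661 and 1341 CPM in ID3-/- replicates 2 and 3 and at 1621 to 2018 CPM in ID3+/- libraries, and Hba-a1 at 689 and 539 CPM in ID3-/- and 587 to 666 CPM in ID3+/- libraries. Globin genes have near-identical copies and reads with several alignments were not assigned, so these levels are uncertain. Erythroid transcripts were thus abundant in all 5 libraries, including those with 0 or 1 Gata1 counts. With single libraries removed, Tfrc passed once in 5 fits, without ID3-/- replicate 3, and its value was -0.69 with offsets for length and GC content.

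Of 21 tested megakaryocyte and platelet genes, 2 were higher and 2 lower, with a median of -0.22. Selp, the adhesion receptor P-selectin of platelets and endothelium, rose to 1.82 ± 0.441 CPM in ID3-/- (SD, n = 2), against 0.352 ± 0.0399 CPM in ID3+/- libraries (SD, n = 3), at 2.37 ± 0.40 on the log2 scale (edgeR adjusted p = 0.0184). Pf4, platelet factor 4, which macrophages also make, rose by 0.55 ± 0.08 on the log2 scale (edgeR adjusted p = 0.0146). Pf4 lost its call with offsets for length and GC content. Clec1b, which Kupffer cells also make, was at 299 ± 19.3 CPM in ID3-/- (SD, n = 2) and 292 ± 4.54 CPM in ID3+/- libraries (SD, n = 3) and did not pass. Plek, pleckstrin of platelets and leukocytes, named with its value seen, fell by 1.08 on the log2 scale (edgeR adjusted p = 0.0226). Nbeal2, needed for platelet granules, did not pass either (-0.23 ± 0.13). The summed list was 579 and 599 CPM in ID3-/- and 556 to 635 CPM in ID3+/- libraries, of which Clec1b alone supplied 50.3% and 50.9% in ID3-/- and 46.9% to 51.7% in ID3+/- libraries. No gene of the list passed without ID3-/- replicate 2 or without ID3+/- replicate 1 or 2.

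Among 20 tested stem and progenitor genes, 0 were higher and 2 lower, with a median of 0.17. Trib2, a pseudokinase that promotes degradation of C/EBP alpha, fell to 2.37 ± 0.16 CPM in ID3-/- (SD, n = 2), against 5.96 ± 1.20 CPM in ID3+/- libraries (SD, n = 3), at -1.33 ± 0.26 on the log2 scale (edgeR adjusted p = 0.0251). Fgd5, a marker of stem cells that endothelium also makes, fell by 1.20 on the log2 scale (edgeR adjusted p = 0.0338). Fgd5 lost its call with offsets for length and GC content. Ly6a and Procr did not pass (-0.16 ± 0.26 and 0.17 ± 0.16). No gene of the list passed without ID3-/- replicate 2 or ID3+/- replicate 1 or 2, and without ID3-/- replicate 3 neither Trib2 nor Fgd5 did.

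Of 32 GATA partners and co-regulators, 1 was higher and 3 lower, with a median of -0.02. Tcf3, which encodes the E proteins E12 and E47, rose by 0.78 ± 0.09 on the log2 scale (edgeR adjusted p = 0.00942). Tcf12, another E protein of these complexes, fell by 1.46 on the log2 scale (edgeR adjusted p = 0.0164), and Ikzf1, a lymphoid and myeloid zinc-finger factor, by 0.57 (edgeR adjusted p = 0.021). The fourth call, Cbfa2t3, the corepressor ETO2 of these complexes, named with its value seen, fell by 1.10 (edgeR adjusted p = 0.0402). Nfe2l1, a relative of Nfe2, and Klf13 did not pass (0.18 ± 0.10 and 0.17 ± 0.10). With their values seen, Zfpm1, the GATA cofactor FOG1, and Tal1 are added: Zfpm1 stood at 19.7 and 14.8 CPM in ID3-/- and 17.4 to 19.6 CPM in ID3+/- libraries, and Tal1 at 0.212 and 0.827 CPM in ID3-/- and 0.152 to 0.67 CPM in ID3+/- libraries. Neither passed. The count of 4 fell to 1 without ID3-/- replicate 2 or ID3+/- replicate 2 and to 2 without ID3+/- replicate 1, was 7 without ID3+/- replicate 3, and was 1 with offsets for length and GC content.

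Of 24 tested genes of KIT and EPO signalling, 1 was higher and 3 lower, with a median of -0.02. Socs3, an inhibitor of JAK signalling that cytokines induce, rose to 23.7 ± 1.25 CPM in ID3-/- (SD, n = 2), against 10.0 ± 0.264 CPM in ID3+/- libraries (SD, n = 3), at 1.25 ± 0.13 on the log2 scale (edgeR adjusted p = 0.00719). Spred1, an inhibitor of RAS signalling, fell by 0.98 on the log2 scale (edgeR adjusted p = 0.0152), and Lyn, a Src-family kinase, by 0.64 (edgeR adjusted p = 0.0281). Jak2, the kinase that EPOR signals through, named with its value seen, had 108 and 59 counts in ID3-/- replicates 2 and 3 and 353, 461 and 188 counts in ID3+/- replicates 1, 2 and 3, and fell by 1.95 on the log2 scale (edgeR adjusted p = 0.0426). Ptpn6, the phosphatase SHP-1 that quenches EPOR and KIT, and the shared cytokine receptor chain Csf2rb did not pass (0.30 ± 0.09 and 0.23 ± 0.11). Epo, the ligand of EPOR, had 0 counts in all libraries, and Kitl, the ligand of KIT, had 41 and 12 counts in ID3-/- and 102, 114 and 15 counts in ID3+/- libraries; both are named with their values seen. The count of 4 was 2 without ID3-/- replicate 2 or ID3+/- replicate 1, 1 without ID3+/- replicate 2, and 1 with the length and GC offsets. Of the genes the naming rule gives as passing in these 5 lists, Tcf3 and Socs3 passed whichever library was removed, and each of the others lost its call without at least ID3+/- replicate 2.

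Of 17 mast cell and basophil genes, 9 had 0 counts in all libraries, among them Cpa3, Mcpt8, Ms4a2 and Fcer1a. The other 8 had counts, and 5 of them passed the filter on low counts and were tested. Hdc, 1 of those 8, had 395 and 516 counts in ID3-/- replicates 2 and 3. In ID3+/- replicates 1, 2 and 3 it had 473, 380 and 353 counts. Mast cells are known for Kit and Gata2, and their part in the levels of these 2 genes was not tested. The 1 called, Slc45a3 (log2 fold change 0.46 ± 0.12, edgeR adjusted p = 0.0437), and Srgn, which did not pass (-0.09 ± 0.09), are also made by other myeloid cells. Slc45a3 lost its call with length and GC offsets and without ID3-/- replicate 2, ID3+/- replicate 1 or ID3+/- replicate 2. Of 32 endothelial genes, 1 was higher and 6 lower, with a median of -0.38. Lyve1 (-2.20 ± 0.35, edgeR adjusted p = 0.0156) and Ptprb (-1.55 ± 0.20, edgeR adjusted p = 0.0106) fell, whereas Stab2, the scavenger receptor of the sinusoid, was at 385 ± 41.6 CPM in ID3-/- (SD, n = 2) and 383 ± 15.8 CPM in ID3+/- libraries (SD, n = 3). The Erg value of -2.08 was lower than that of 31 of the 32, that of Gata2 lower than 19 and that of Kit lower than 13. The endothelial count of 7 fell to 1 without ID3-/- replicate 2, 3 without ID3-/- replicate 3, 2 without ID3+/- replicate 1 and 0 without ID3+/- replicate 2. The higher one, named with its value seen, was Cldn5 (0.88 ± 0.19, edgeR adjusted p = 0.0303), a tight junction protein. Cldn5 lost its call without ID3+/- replicate 1, 2 or 3 and with length and GC offsets. Of 10 tested neutrophil genes 7 were higher, S100a9 with the smallest p (6.76 ± 0.81 on the log2 scale, edgeR adjusted p = 0.00938), and that count was 1 without ID3-/- replicate 2 or ID3+/- replicate 1 and 0 without ID3+/- replicate 2. Of 20 cell cycle genes 1 was lower (Rrm2, -0.81 ± 0.17, edgeR adjusted p = 0.0306), and Rrm2 passed in 1 of the 5 such fits, that without ID3+/- replicate 3. The other marker lists had 2 higher and 0 lower of 16 for T and NK cells, 1 and 0 of 12 for B and plasma cells, 0 and 13 of 17 for hepatocytes, 1 and 4 of 12 for stellate cells and fibroblasts, and 3 and 0 of 14 for Kupffer cells. Single libraries moved these counts: the calls among T and NK genes were 7 without ID3-/- replicate 3, 1 (a lower one) without ID3-/- replicate 2 and 0 without any 1 ID3+/- library, and those among B and plasma genes were 3 without ID3-/- replicate 3 and 0 without any other library. Hepatocyte calls were 6 without ID3+/- replicate 1 or 2 and 10 to 17 without another library, 2 of the 14 without ID3-/- replicate 2 being higher. Stellate and fibroblast calls were 0 without ID3+/- replicate 1 or 2, 2 without ID3-/- replicate 2 or ID3+/- replicate 3, and 4 without ID3-/- replicate 3. Kupffer cell calls were 1 without ID3-/- replicate 2 or ID3+/- replicate 1 or 2, 3 without ID3-/- replicate 3, and 6 (1 of them lower) without ID3+/- replicate 3.

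The genes with profiles most like those of the tested 8 were taken over the 5 libraries, by the root-mean-square distance between log2 CPM values, each relative to its own mean. Closest to Gata1 were Tmem100 (distance 0.353), Atp4a (0.391) and Zfp455 (0.458), and closest to Gata2 were Mkln1os (0.0896), Tom1l1 (0.139) and Gpr85 (0.139). Erg was closest to Elmod2 (0.146), Cyp7b1 (0.148) and Cse1l (0.154), and Kit to Edaradd (0.068), Bmp6 (0.0841) and Dnhd1 (0.098). Nfe2 was closest to Pglyrp1 (0.202), Spns3 (0.238) and Igkv1-110 (0.24), and Epor to H2-DMb2 (0.0377), Kctd5 (0.0394) and Zfp574 (0.0445). Klf1 was close to Nkd2 (0.168) and Islr (0.223), and Myb closest to Olr1 (0.0703), Fbxo40 (0.234) and Rhpn1 (0.241). With 5 libraries many of the 16436 genes can come close to any profile, so these are descriptions.

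**Figure D4:**
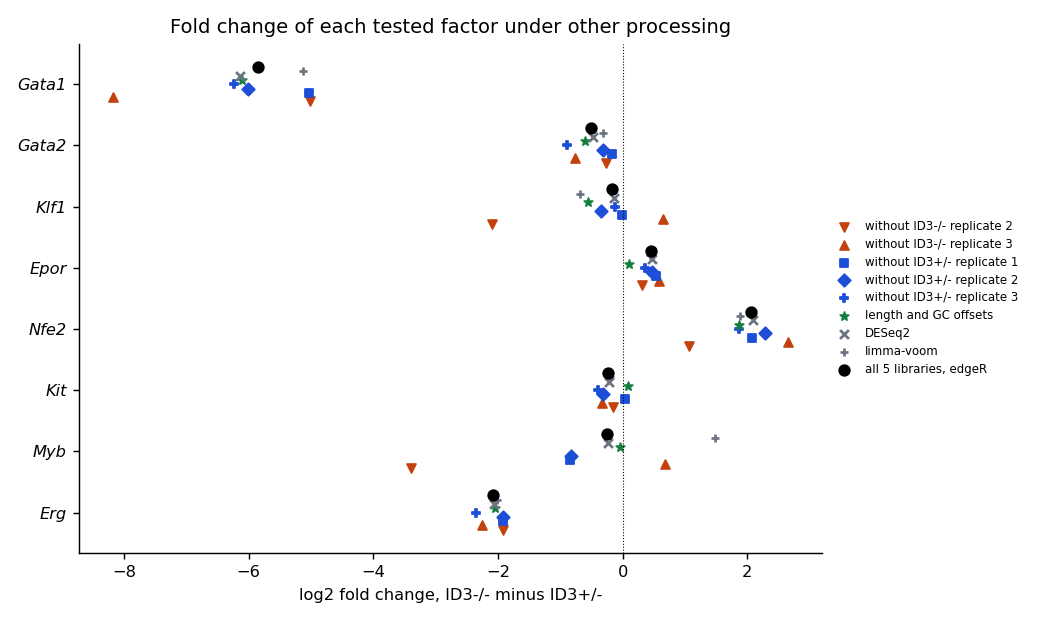
Log2 fold change (ID3-/- minus ID3+/-) of the 8 tested genes in the fit to all 5 libraries (black circles) and under 8 alternatives given in the legend. Gata1 and Erg stay below 0 and Nfe2 and Epor above 0 throughout, while Kit, Klf1 and Myb change sign.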

How the data were processed

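Poly-A RNA of 5 Kupffer cell samples was analysed, 2 ID3-/- and 3 ID3+/-. Per the labels' protocols, SMART-seq V4 cDNA went into Kapa libraries. The authors deposited raw read counts per gene, made with HTSeq 0.5.4, with DESeq 1.18.0, R 3.1.2 and build mm9 also named, per the submitters' processing notes. The sources used here do not name an aligner, annotation or strand setting. The 5 entries that name no gene (40.0% and 42.8% of everything counted in ID3-/-, 47.0% to 48.6% in ID3+/- samples) were left out. Labels name no separate animals, so p-values reflect only how these samples vary, which may be technical. No replicate pair was as close as counting noise allows (lowest chi-square over its degrees of freedom 23.6).

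The 9 genes and all lists were chosen with earlier results of these data known. Counts were fitted across 16436 genes with edgeR 4.0.16 in R 4.3.3 (quasi-likelihood, TMM, genes kept by filterByExpr, Benjamini-Hochberg, threshold 0.05), ID3-/- minus ID3+/-, and tested on simulated data. An SE is the log2 fold change over the square root of F. Exact tests of 2 against 3 samples cannot give a p below 0.1, so none were made. Alternatives were DESeq2 1.42.0, limma 3.58.1 (voom), other scalings and filters, length and GC offsets, a replicate block and leaving out each library. Lengths and GC content came from GENCODE M21 (46488 of 46983 IDs matched), a later build than mm9. Beside the 9 genes, the text names per list up to 3 passing genes by smallest p and 2 others by level (2 and 1 in cell type lists, given in part), and the 3 nearest profiles per gene with a prior count of 2, without unnamed gene models. Some genes that this rule selects are not reported here.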

Additional observations from a re-analysis of the deposited data

How the results depend on the processing

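Over 15 alternatives, Gata1 stayed between -8.18 and -4.98 where it was tested, Erg between -2.35 and -1.80, Nfe2 between 1.07 and 2.65 and Epor between 0.10 and 0.58 (log2 fold change), while Gata2, Kit, Klf1 and Myb took both signs. No alternative moved the median of all genes by over 0.1 (log2). The 2698 genes passing (1054 higher, 1644 lower) became 4581 with DESeq2 (2061 and 2520), 1778 with length and GC offsets (901 lower), 1 with a replicate block (0 higher, 1 lower) and 0 with both (0 and 0; a cause was not tested). Leaving out 1 library gave 335 to 2540 in all, 87 to 1032 higher and 248 to 1508 lower. The replicate block left 0 calls in each of the 5 pathway lists, with and without the offsets. Between libraries with a shared number, deviations from the group means had correlations of -0.03 and -0.06. With 2 ID3-/- libraries those deviations mirror each other, so the values cannot show whether such samples share more than a number. The block leaves 1 residual degree of freedom. In the erythroid list 1 call became 3 with DESeq2 and 2 with upper-quartile scaling, library size or the filter of 1 CPM in 2 samples, and 0 to 1 without 1 library. Leaving out 1 library gave 0 to 5 in the megakaryocyte and platelet list and 0 to 2 in the stem and progenitor list, where the offsets gave 1. The 4 calls among GATA partners became 11 with DESeq2, 8 with the filter of 1 CPM in 2 samples, 1 with offsets and 1 to 7 without 1 library. The 4 in KIT and EPO signalling became 10 with DESeq2, 8 with upper-quartile scaling, 7 with library size, 10 with that filter, 1 with offsets and 1 to 5 without 1 library. C1qb, a Kupffer cell marker at 0.36 (log2), was at -0.049 with offsets and -0.060 with the block added. Myb did not pass the filter without ID3+/- replicate 3, nor did Gata1, Klf1 and Myb at 1 CPM in 2 samples. Counts under 50 a library limit what can be said of Gata1, Gfi1b, Klf1 and Myb. A fit that leaves 1 ID3-/- library assumes that it varies like the others.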

Other observations

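Gata1 had a pattern that few genes had: 10 or more counts in each ID3+/- library and at most 1 over both ID3-/- libraries. In all, 30 genes met it, and 26 met its mirror image, 10 or more counts in both ID3-/- libraries and at most 1 over the ID3+/- libraries. Tmem100 and Zfp455, 2 of the 3 genes nearest to Gata1 in profile, were among the 30, as were the hepatocyte transcripts Hsd3b5, Cyp4a12a and Mup5. The mirror image held Ly6g, a neutrophil antigen, and Nos2, the inducible nitric oxide synthase. These thresholds and names were chosen after the values were seen.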
